A study of Mus musculus with 6 samples.

Results

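Ion channel genes were followed in ciCPCs, expandable cardiovascular progenitor cells that small molecules had induced from mouse fibroblasts. The genes were the protein-coding ones whose symbols name a potassium channel subunit (Kcn with a letter and number), a voltage-gated sodium channel subunit (Scn), a calcium channel alpha1 or alpha2delta subunit (Cacna) or a hyperpolarisation-activated channel (Hcn). The count files held 124 such genes among 53801 genes, of which 21967 were protein coding. RNA was sequenced from 3 libraries of cells at passage 3 and 3 of cells at passage 20. All cells were wild type with C57BL/6 and 129J/SvE ancestry, were expanded after colony picking at day 14 of cardiac reprogramming, and grew with BMP4, Activin A, the GSK3 inhibitor CHIR99021 and the FGF receptor inhibitor SU5402. The labels do not say how many colonies or cultures the libraries came from, so p-values measure the spread between these libraries, which may be technical, and effects of passage and of culture or harvest cannot be told apart.

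Voltage-gated channels open when the membrane potential changes and shape the action potential of heart, muscle and nerve. Sodium channels drive the upstroke, calcium channels couple depolarisation to contraction and signalling, and Hcn channels carry the pacemaker current. Potassium channels repolarise the cell and set its resting potential, in non-excitable and dividing cells too. Pore-forming subunits are assisted by accessory subunits that change gating and delivery to the membrane.

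Libraries held 11387738 to 17721788 counts in genes. Levels are normalised CPM, which are counts relative to the library total after scaling by TMM (trimmed mean of M-values), and RPKM, which is the same per kilobase of exon, where genes are compared with each other. In the test over all 15143 genes that passed a filter on low counts, 74.3% were called at an adjusted p under 0.05 (37.0% higher and 37.3% lower at passage 20), with a median log2 fold change of -0.01. Scaled by library sizes alone, that median was -0.34, with 3528 genes called higher and 8273 lower in place of 5604 and 5641, so changes are relative to the TMM scaling. Passage 20 replicate 3 stood apart, with a chi-square per gene of 8.74 and 10.6 against the other 2 libraries of its passage, where other pairs of replicates gave 1.77 to 2.67. All 11 cardiac progenitor markers were tested, and 6 rose and 5 fell. Isl1, which marks the second heart field, fell from 63.2 ± 5.72 to 7.45 ± 0.534 CPM and Nkx2-5, a core cardiac factor, rose from 1.15 ± 0.211 to 5.24 ± 0.371 CPM. Among 11 markers of contracting cardiomyocytes, summed levels were 16.1 to 16.9 CPM at passage 3 and 13.9 to 18.1 CPM at passage 20, with the ventricular gene Myl2 at 0 counts in all libraries. Single markers changed within that sum. Among the 6 tested, 2 rose, both at least 2-fold, 2 fell and 2 did not pass.

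The channel genes changed in both directions. Of 124 members, 76 were tested, and 22 rose, 33 fell and 21 did not pass at passage 20. That is 72.4% called, against 74.3% of all genes tested, and the median log2 fold change was -0.15. Without passage 20 replicate 3, 24 rose and 34 fell. The libraries of the passages did not overlap in 55 members (all genes tested, 77.5%). At least 2-fold changes were called in 36 members (47.4%), 16 higher and 20 lower, where all genes gave 27.6% (13.4% higher and 14.3% lower). Of the 76, 19 reached the filter's level in passage 3 only (15 of them fell) and 5 in passage 20 only (all 5 rose), and such genes enter the test through the passage where they are high, so these counts and medians carry that choice. The other 52 reached it in all 6 libraries, and of these 35 were called, 17 higher and 18 lower (67.3%, against 74.2% of the 13143 genes that did so). Their median log2 fold change was 0.13, opposite in sign to that of the 76. Calls with at least a 2-fold change numbered 17, of which 11 were higher and 6 lower (32.7%, against 21.4%). Since the RNA came from bulk cultures, fewer cells with a transcript and less of it per cell cannot be told apart.

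**Figure D1:**
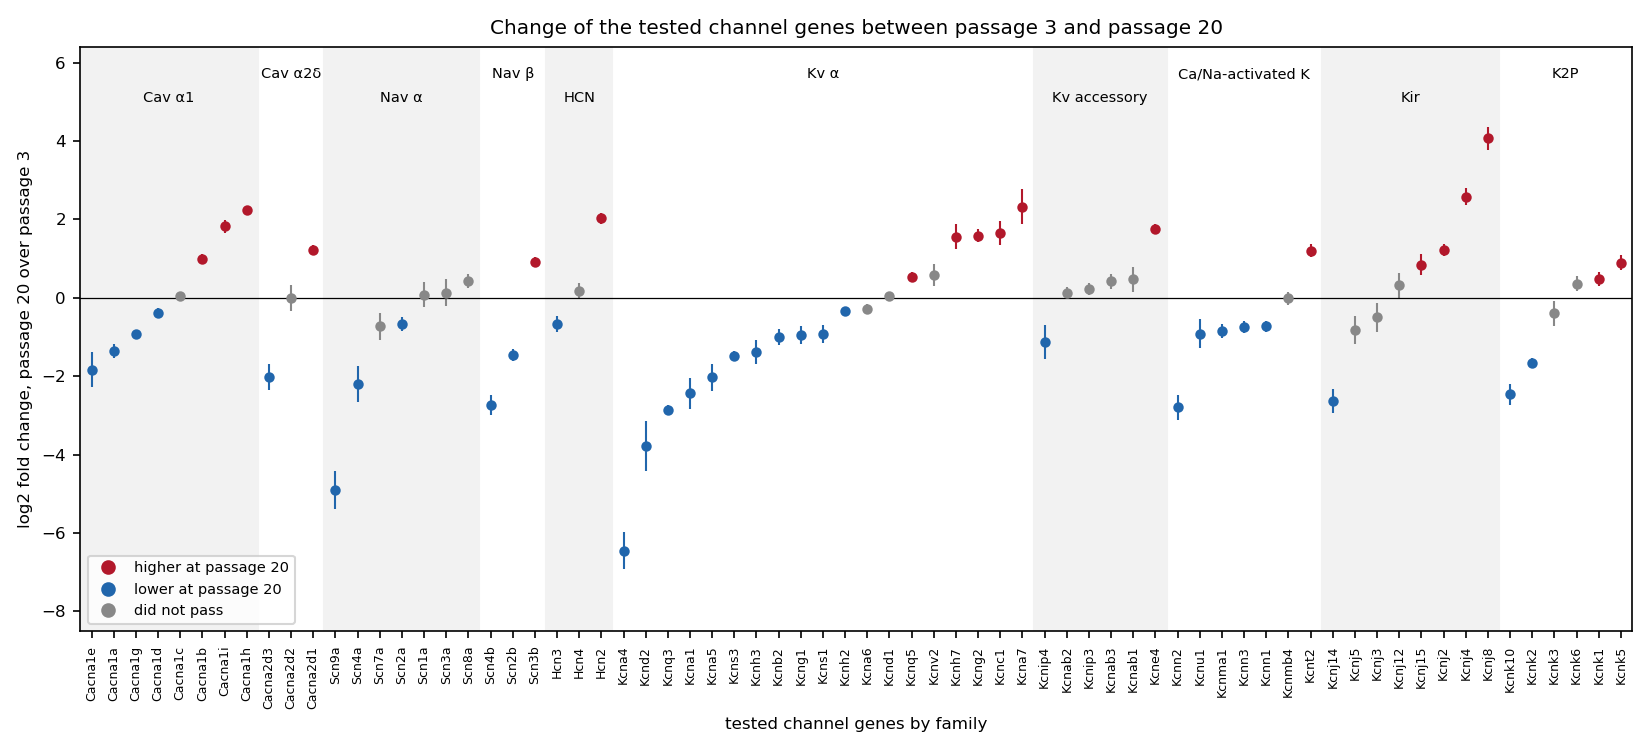
Log2 fold change of 70 tested channel genes (passage 20 over passage 3, y axis), grouped by family and sorted within it (x axis). Points are edgeR estimates, bars are 1 standard error, and colours mark the calls. The calls lie on both sides of 0, from Kcna4 at -6.44 to Kcnj8 at 4.07.

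Per kilobase of exon, the T-type calcium channel genes Cacna1g and Cacna1h and the accessory subunit gene Kcne4 were among the highest members. Cacna1g led at passage 3 with 20.4 ± 0.407 RPKM and Cacna1h at passage 20 with 33.7 ± 1.87 RPKM, where Kcne4 came next with 20.1 ± 0.512 RPKM (means ± SD, n = 3). Summed over all members the level was 125 ± 4.06 RPKM at passage 3 and 155 ± 3.16 RPKM at passage 20 (n = 3).

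**Figure D2:**
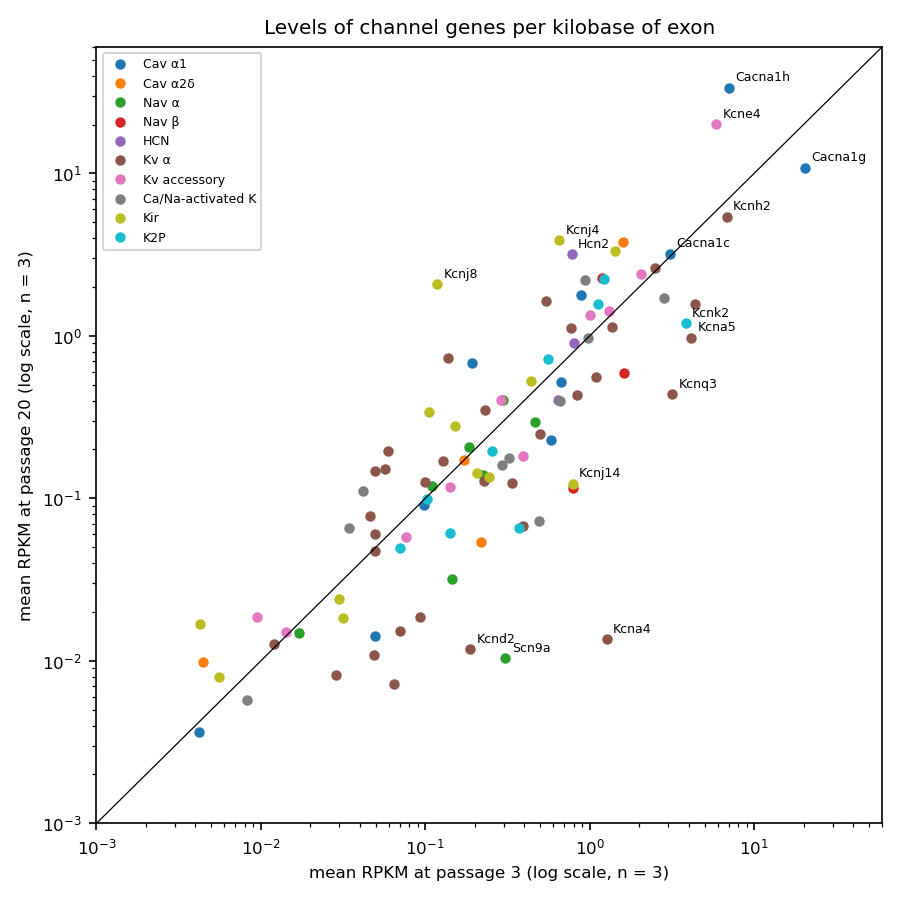
Mean RPKM at passage 3 (x axis) against passage 20 (y axis), both on log scales, for 102 of the 124 channel genes, all with a count at both passages. Colours mark the families and the line marks equal levels. Cacna1h lies above the line and Cacna1g below it at the top right, while Kcna4 is far below the line, at 1.27 against 0.0137 RPKM.

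The members with the largest rise and the largest fall were Kcnj8 and Kcna4. Their promoters are shown as the 250 bases before the RefSeq start on GRCm38.p6, because these genes mark the ends of the range of change. Capitals mark E-boxes (CANNTG, bound by basic helix-loop-helix factors) and GC boxes (GGGCGG, read on either strand).
Kcnj8 promoter, chr6:142571615-142571864, minus strand: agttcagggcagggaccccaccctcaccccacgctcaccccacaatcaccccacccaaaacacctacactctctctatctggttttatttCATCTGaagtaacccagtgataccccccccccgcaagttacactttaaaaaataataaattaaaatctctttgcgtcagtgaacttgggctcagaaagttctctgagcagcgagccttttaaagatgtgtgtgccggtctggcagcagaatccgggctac
Kcna4 promoter, chr2:107290339-107290588, plus strand: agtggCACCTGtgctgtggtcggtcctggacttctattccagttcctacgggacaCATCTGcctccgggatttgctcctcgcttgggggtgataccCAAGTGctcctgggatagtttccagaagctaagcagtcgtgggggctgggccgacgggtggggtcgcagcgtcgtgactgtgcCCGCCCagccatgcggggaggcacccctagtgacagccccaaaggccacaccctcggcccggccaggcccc
The Kcnj8 window held 1 E-box and no GC box, with 49.2% G and C. The Kcna4 window held 3 E-boxes and 1 GC box, with 65.2% G and C. Neither held TATAAA, and no motif overlapped another. Of 32536 windows of the same length, 66.2% held an E-box, 33.0% a GC box and 12.3% TATAAA. Windows were matched for 89 of the 124 members. Gene coordinates given with the values are those of GENCODE on GRCm38, where the start of Kcna4 lies downstream of the RefSeq start.

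The voltage-gated calcium channels changed their make-up. Genes of T-type channels, which open at low voltage and are known in the embryonic heart and in pacemaker cells, moved in opposite directions. Cacna1h (ENSMUSG00000024112, chromosome 17, 25374285 to 25433783) stood at 62.7, 70.1 and 74.4 normalised CPM in the libraries of passage 3 and at 349, 325 and 314 at passage 20. All libraries of passage 20 were above those of passage 3, and it rose 4.76-fold (log2 2.25 ± 0.07 SE, adjusted p = 8.18e-10, quasi-likelihood test of edgeR, Benjamini-Hochberg adjustment). Cacna1g (ENSMUSG00000020866, chromosome 11, 94408391 to 94474198) stood at 202, 207 and 211 CPM at passage 3 and at 121, 112 and 96.8 CPM at passage 20. It fell 1.88-fold in groups that did not overlap (log2 -0.91 ± 0.07 SE, adjusted p = 7.9e-07, same test). The remaining gene of this class, Cacna1i, rose 3.53-fold from 1.9 ± 0.153 to 6.75 ± 0.764 CPM. Per kilobase, Cacna1h made up 24.2%, 25.9% and 26.6% of T-type transcripts at passage 3 and 73.9%, 74.0% and 75.8% at passage 20, while their sum went from 27.6 ± 1.02 to 45.3 ± 3.03 RPKM.

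Cacna1c, which encodes the L-type channel of cardiac and smooth muscle, stood at 67.1, 64.6 and 64.1 CPM at passage 3 and at 72.7, 69.7 and 61.8 CPM at passage 20, so the groups overlapped. Its log2 fold change of 0.06 ± 0.07 SE did not pass (adjusted p = 0.461), and it was -0.27 and called lower with library sizes alone. Cacna1d, the L-type gene of the sinoatrial node and endocrine cells, fell 1.3-fold, from 8.46 ± 0.198 to 6.54 ± 0.216 CPM (adjusted p = 0.0133, and 0.0697 by DESeq2). Of the genes of neuronal presynaptic channels, Cacna1b (N-type) rose 2.01-fold to 17.8 ± 1.56 CPM, while Cacna1a (P/Q-type) fell 2.56-fold to 2.61 ± 0.636 CPM and Cacna1e (R-type) fell 3.56-fold to 0.358 ± 0.259 CPM. Cacna1e entered the test through passage 3 only, where it is high. Cacna1s of skeletal muscle and Cacna1f of the retina were under the filter, at 52 and 3 counts in all.

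Among alpha2delta subunits, which carry calcium channels to the membrane, the most abundant gene rose. Cacna2d1 was at 18.6, 20.1 and 20.9 CPM at passage 3 and at 55, 45.9 and 39.2 CPM at passage 20, 2.35-fold higher (adjusted p = 4.36e-06, edgeR's quasi-likelihood test). Cacna2d3 fell 4.05-fold to 0.468 ± 0.206 CPM, Cacna2d2 stood at 1.36 ± 0.552 and 1.37 ± 0.127 CPM and did not pass, and Cacna2d4 had 5 counts in all. Of these, Cacna2d3 entered the test through passage 3 only, where it is high. Other calcium channel genes were read from a list of 20 beta and gamma subunit and regulator genes. In its 15 tested members there were 7 higher, 6 lower and 2 not past the threshold (median log2 fold change -0.06). The share called was 86.7%, against 74.3% of all genes tested. None of the gene lists was split by the passage through which genes passed the filter, so their counts and medians carry that choice. Cacnb3, the beta subunit gene with the most counts, fell 1.32-fold from 90.5 ± 0.497 to 68.8 ± 5.48 CPM, and the channel inhibitor gene Gem rose 2.14-fold from 46.4 ± 1.05 to 99.3 ± 8.76 CPM.

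Sodium channel alpha subunits were expressed at low levels, and the largest fall was in a gene of peripheral sensory neurons. Scn9a stood at 4.56, 3.02 and 4.2 CPM at passage 3 and at 0.297, 0.0994 and 0 CPM at passage 20, with 4 counts in all at the later passage. Its fitted change was 29.7-fold lower (log2 -4.89 ± 0.48 SE, adjusted p = 3.94e-06, edgeR's quasi-likelihood test), and the log2 value was -6.20 without passage 20 replicate 1 and -4.27 without replicate 3. Scn4a of skeletal muscle fell 4.58-fold from 1.03 ± 0.175 CPM (log2 -2.19, and -2.85 without passage 20 replicate 2). Both Scn9a and Scn4a entered the test through passage 3 only, where they are high. Scn2a fell 1.6-fold to 3.74 ± 0.789 CPM, while Scn8a, at 4.67 ± 0.718 and 6.37 ± 1.32 CPM, did not pass (adjusted p = 0.0567); both are brain channel genes. Scn8a was called higher without passage 20 replicate 3 (adjusted p = 0.00283, edgeR's quasi-likelihood test) or passage 3 replicate 3 (0.0421). Scn1a, Scn3a and Scn7a did not pass either, and Scn10a had no count, which over all libraries allows up to 0.0357 CPM.

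Some of these genes are neighbours. On chromosome 2, Scn9a lies between Scn1a and Scn7a, within 66270778 to 66784914, and of the 3 genes Scn9a alone was called. On chromosome 9, Scn2b and Scn4b lie side by side between 45117782 and 45154152, and both fell. In all, 49 members lay within 500 kb of another, in 21 groups.

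Beta subunits, which modify gating of sodium channels and act in cell adhesion, included genes that moved in opposite directions. Scn4b fell from 4.18, 4.0 and 3.69 CPM at passage 3 to 0.594, 0.398 and 0.74 CPM at passage 20, 6.64-fold, and Scn2b fell 2.75-fold to 2.75 ± 0.234 CPM. Scn3b rose 1.89-fold from 6.52 ± 0.434 to 12.3 ± 0.679 CPM (largest adjusted p of these 3 genes = 2.56e-05, edgeR's quasi-likelihood test). Scn4b entered the test through passage 3 only, where it is high. A list of 16 genes of sodium channel partners and other sodium conductances had 9 tested. In these 5 rose, 3 fell and 1 did not pass (88.9% called, against 74.3% of all genes tested, median log2 0.44). These counts carry the choice made by the filter too. The intracellular FGF homologues that bind sodium channels differed, with Fgf12 falling 13.6-fold from 12.3 ± 1.36 to 0.914 ± 0.335 CPM and Fgf11 rising 3.24-fold from 12 ± 2.59 to 39.4 ± 3.77 CPM. At passage 20 Fgf12 was near the filter's cutoff of 0.733 CPM, so its entry to the test rests on passage 3, where it is high.

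The pacemaker channel genes were low in transcripts, and Hcn2 rose while Hcn3 fell. Hcn2 stood at 2.28, 2.28 and 2.88 CPM at passage 3 and at 10.2, 9.65 and 10.8 CPM at passage 20, and rose 4.08-fold (adjusted p = 3.69e-07, edgeR's quasi-likelihood test). Hcn3 fell 1.59-fold (adjusted p = 0.0112, and 0.0782 by DESeq2). Hcn4, the main isoform of the sinoatrial node, stood at 6.15, 4.68 and 3.94 CPM and at 6.34, 4.38 and 5.92 CPM, so the groups overlapped (adjusted p = 0.414). Hcn2 made up 32.7 ± 5.13% of summed Hcn RPKM at passage 3 and 70.7 ± 2.32% at passage 20, and Hcn4 33.7 ± 6.03% and 19.9 ± 2.47% (mean ± SD, n = 3).

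**Figure D3:**
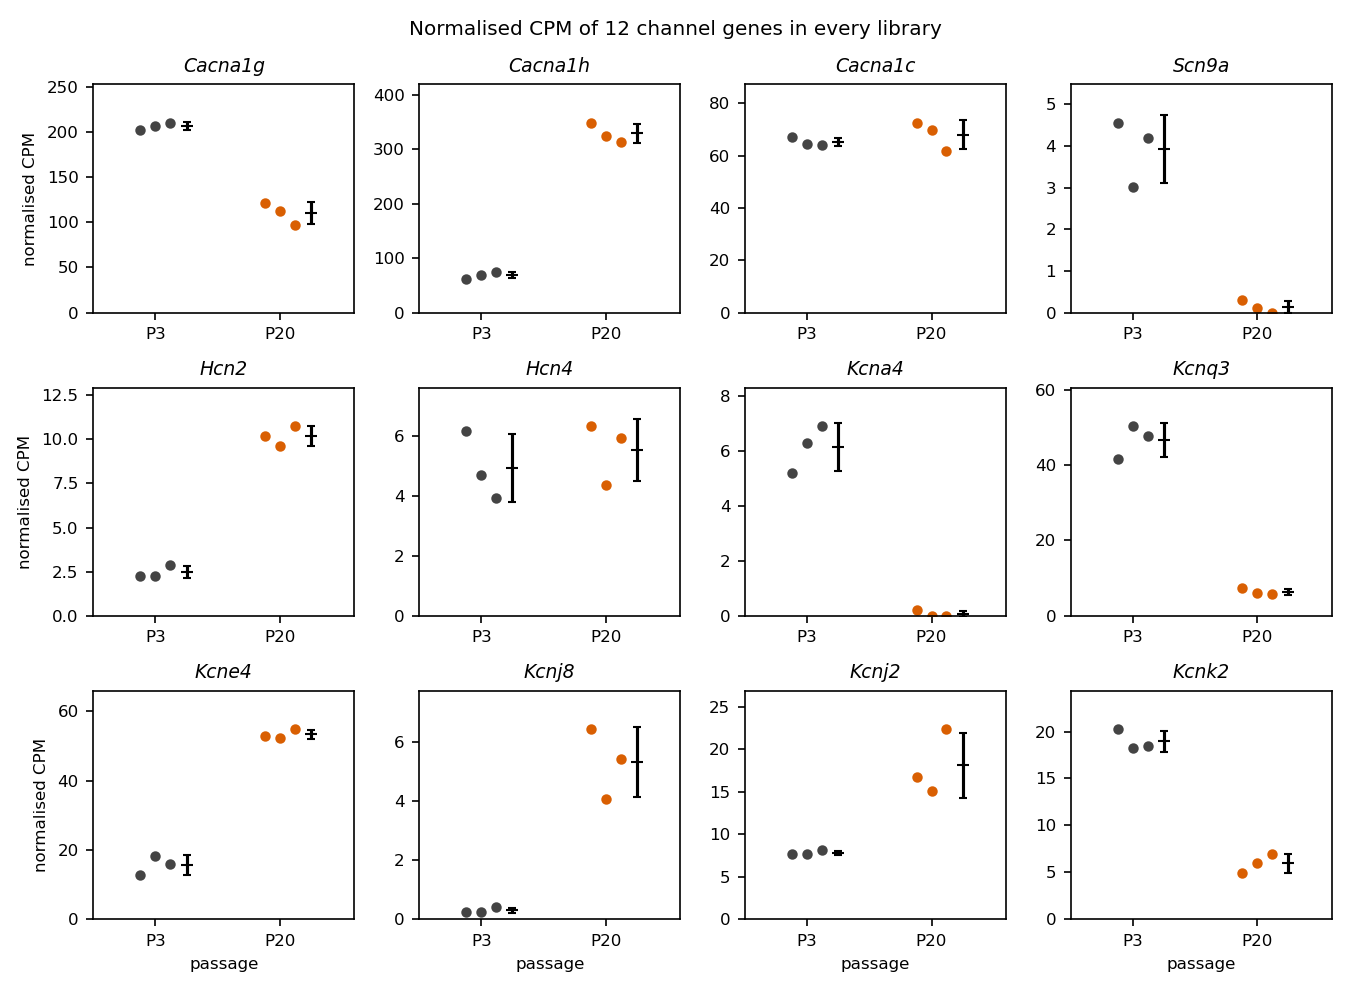
Normalised CPM (y axis, from 0) of 12 channel genes in each library at passage 3 (P3, grey) and passage 20 (P20, orange). Bars beside the points are mean ± SD (n = 3). Libraries overlap for Cacna1c and Hcn4, and lie apart for the other 10 genes.

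Voltage-gated potassium channel alpha subunits, the largest family with 40 genes, had calls in both directions. The 22 tested comprised 7 that rose, 12 that fell and 3 that missed the threshold (median log2 fold change -0.41). Calls made up 86.4% of them, against 74.3% of all genes tested. In the members at the filter's level in both passages, 4 rose, 8 fell and 3 did not pass. Among all genes at that level in all 6 libraries, 74.2% were called. The family's summed level went from 33.7 ± 0.960 to 23.6 ± 0.962 RPKM. The Shaker-type gene Kcna4 (ENSMUSG00000042604, chromosome 2, 107290639 to 107298502), which carries a rapidly inactivating outward current, stood at 5.19, 6.28 and 6.93 CPM at passage 3 and at 0.198, 0 and 0 CPM at passage 20. It had 321 counts at passage 3 and 2 at passage 20, which is 100.1-fold lower in pooled counts (95% exact counting interval 27.5 to 830.5; adjusted p = 3.23e-07, edgeR's quasi-likelihood test). Its fitted log2 value was -6.44, -9.51 without passage 20 replicate 1 and -5.86 without replicate 3. Kcna4 entered the test through passage 3 only, where it is high.

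Several other genes of outward currents in the heart were lower. Kcna5, of the ultrarapid delayed rectifier, went from 12.9, 11 and 11.6 CPM at passage 3 to 2.28, 1.09 and 5.02 CPM at passage 20, 4.06-fold lower (adjusted p = 0.000812). Passage 20 replicate 3 was the highest of its group, and the log2 value of -2.02 was -2.82 without it. Kcnd2, of the transient outward current, had 50 counts at passage 3 and 2 at passage 20, 15.6-fold lower in pooled counts (95% exact counting interval 4.10 to 132; adjusted p = 0.000272, edgeR's quasi-likelihood test). It entered the test through passage 3 only, where it is high. Kcnd1 of the same subfamily stood at 13.3 ± 0.38 and 13.8 ± 1.13 CPM and did not pass. Kcnh2, of the rapid delayed rectifier, was at 33.9, 32.6 and 33 CPM at passage 3 and at 24.4, 27.8 and 26.6 CPM at passage 20, and fell 1.26-fold (adjusted p = 0.00206). Kcnq1, of the slow delayed rectifier, had 11 and 8 counts, and Kcnd3 25 and 15, which were under the filter. Kcnq1 overlaps the antisense transcript Kcnq1ot1, and no source here states whether counting used strand.

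Other genes of this family, some of them of neuronal potassium currents, went both ways. Kcnq3, a subunit of the M-current that damps repetitive firing, stood at 41.6, 50.4 and 47.8 CPM at passage 3 and at 7.33, 6.17 and 5.84 CPM at passage 20. The groups were far apart, and it fell 7.26-fold (log2 -2.86 ± 0.12 SE, adjusted p = 3.68e-09, edgeR's quasi-likelihood test). Kcnq5 of the same subfamily rose 1.45-fold, though not past the threshold with library sizes alone. Kcnb2, a delayed rectifier gene, fell 1.98-fold to 3.8 ± 0.689 CPM. Subunits that form no channel alone and modify other subunits also differed, with Kcng2 3.01-fold higher and Kcns3 2.79-fold, Kcns1 1.9-fold and Kcng1 1.93-fold lower. Kcna1, an axonal gene, fell 5.41-fold to 0.324 ± 0.239 CPM (log2 -2.44, and -3.20 without passage 20 replicate 3). This gene entered the test through passage 3 only, where it is high. Kcna1 and Kcna5 neighbour Kcna6 on chromosome 6, which stood at 8.16 ± 0.479 and 6.7 ± 0.792 CPM and did not pass. From low levels, Kcnc1 rose 3.14-fold, Kcna7 5.02-fold and Kcnh7 2.94-fold, the last overlapping Gca on the opposite strand. Kcnc1, Kcna7 and Kcnh7 entered the test through passage 20 only, where they are high. The largest adjusted p of the called genes in this paragraph was 0.00403 (edgeR's quasi-likelihood test).

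Accessory subunits of these channels changed mainly through 1 gene. Kcne4, whose product is known to inhibit Kcnq1 channels, stood at 12.7, 18.4 and 15.9 CPM at passage 3 and at 53, 52.3 and 54.9 CPM at passage 20. It rose 3.41-fold in groups that did not overlap (log2 1.77 ± 0.11 SE, adjusted p = 1.07e-07, edgeR's quasi-likelihood test), and the family's summed level went from 11.2 ± 1.35 to 26.1 ± 0.149 RPKM. Kcne1, Kcne2 and Kcne3 had 19, 4 and 2 counts in all. Kcnab1, Kcnab2, Kcnab3 and Kcnip3, with means of 2.47 to 8.57 CPM, did not pass. Kcnip4 fell 2.18-fold (adjusted p = 0.0369), but its groups overlapped, and it overlaps 5730480H06Rik on the opposite strand, which had more counts. It did not pass by DESeq2 (0.0764), by limma-voom (0.068), or without passage 20 replicate 1, passage 3 replicate 2 or passage 3 replicate 3 (0.0924, 0.158 and 0.0737). Kcnip4 entered the test through passage 3 only, where it is high. Kcnip2, the partner of Kcnd channels in the ventricle, had 25 and 13 counts. A list of 13 other partners of voltage-gated, large-conductance and ATP-sensitive channels had 9 tested. In these 3 rose, 3 fell and 3 did not pass (66.7% called, against 74.3% of all genes tested, median log2 -0.15). Among them Amigo1, which encodes an adhesion molecule that binds potassium channels, fell 4.1-fold from 8.91 ± 0.234 to 2.16 ± 0.158 CPM.

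Inward rectifier genes were higher in sum at passage 20, and most of the called ones rose. Of 15 genes, 8 were tested, and 4 rose, 1 fell and 3 did not pass (62.5% called, against 74.3% of all genes tested). The family's summed level was 4.21 ± 0.133 RPKM at passage 3 and 10.9 ± 1.70 RPKM at passage 20. Kcnj8 entered the test through passage 20 only, and Kcnj14, which fell, through passage 3 only. In the members at the filter's level in both passages, 3 rose and 1 did not pass, where 74.2% of all genes at that level in all 6 libraries were called. Kcnj8 (ENSMUSG00000030247, chromosome 6, 142564837 to 142571614), the pore of vascular ATP-sensitive channels, stood at 0.253, 0.246 and 0.404 CPM at passage 3 and at 6.43, 4.08 and 5.43 CPM at passage 20. It rose 16.8-fold, from 16 to 172 counts in all (log2 4.07 ± 0.30 SE, adjusted p = 3.37e-07, edgeR's quasi-likelihood test). Abcc9, which encodes the regulatory subunit of this channel and lies 16247 bases away on chromosome 6, rose 6.98-fold, from 1.65, 0.862 and 1.52 to 9.11, 9.75 and 9.54 CPM (adjusted p = 2.47e-07, same test). The related pore gene Kcnj11 had 6 and 3 counts. Its partner Abcc8 had 4 and 30 counts and was called higher, but entered the test through passage 20 only, where it is high.

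The strong inward rectifiers, which hold the resting potential of cardiomyocytes, were higher in 2 of 4 cases. Kcnj2 stood at 7.67, 7.64 and 8.09 CPM at passage 3 and at 16.7, 15.1 and 22.4 CPM at passage 20, and rose 2.33-fold. Kcnj4 rose 5.98-fold, from 1.52, 1.23 and 1.47 CPM to 6.93, 7.46 and 10.8 CPM. For both genes every library of passage 20 was above those of passage 3, and replicate 3 was the highest. Kcnj12 stood at 1.21 ± 0.369 and 1.46 ± 0.403 CPM and did not pass, and Kcnj14 fell 6.2-fold from 2.14 ± 0.25 to 0.335 ± 0.0655 CPM (largest adjusted p of Kcnj2, Kcnj4 and Kcnj14 = 1.79e-05, edgeR's quasi-likelihood test). Kcnj3 and Kcnj5, which form the acetylcholine-activated channel of atria, stood at 1.07 ± 0.401 and 0.748 ± 0.0785 CPM and at 1.14 ± 0.277 and 0.632 ± 0.255 CPM, and did not pass (adjusted p = 0.246 and 0.0592). The Kcnj5 value passed, as lower, with library sizes alone (0.0132), upper-quartile factors (0.0418), limma on the authors' log2 values (0.0447) and the replicate block (0.049). It also passed without passage 20 replicate 3 (0.0143) or passage 3 replicate 2 (0.05). Kcnj15 rose 1.8-fold (adjusted p = 0.0145), but did not pass with library sizes alone (0.0935), by DESeq2 (0.071), or without passage 20 replicate 1 (0.0635) or passage 3 replicate 2 (0.0588).

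**Figure D4:**
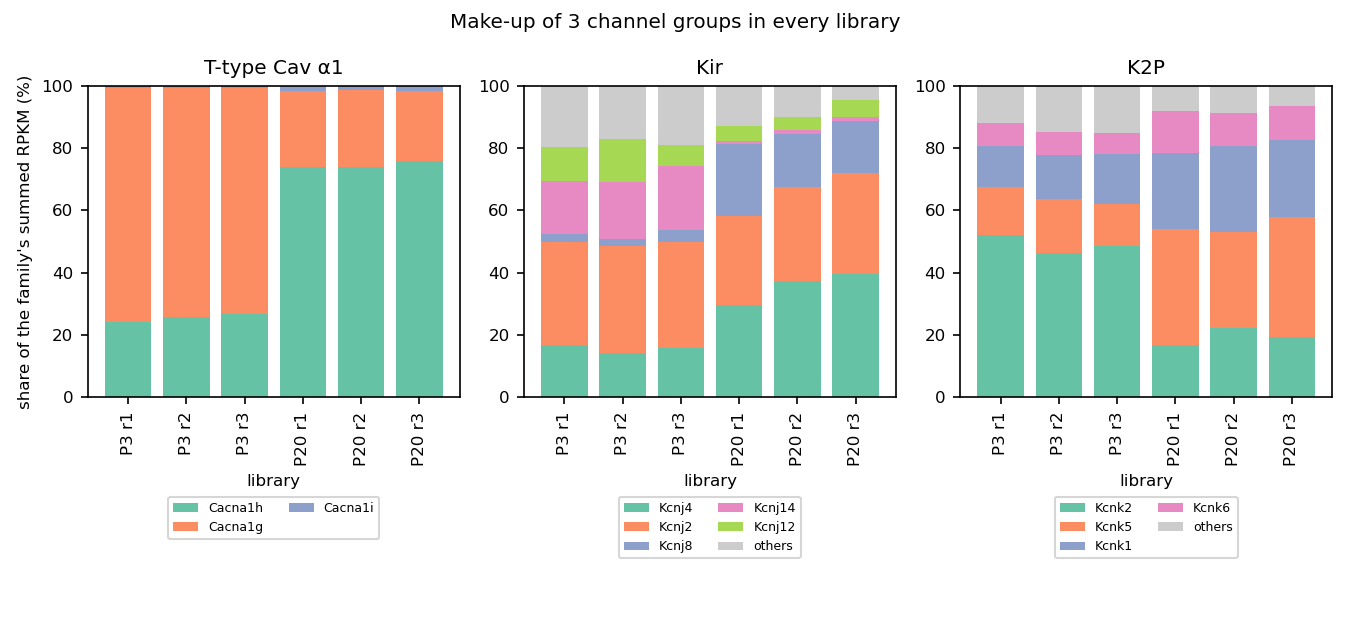
Share of summed RPKM (y axis, %) held by each gene of 3 channel groups in each library (x axis, P3 and P20 with replicate numbers). In the Kir and K2P groups, genes that reach a mean of 10% at neither passage are summed as others. Cacna1h holds the larger T-type share at passage 20, Kcnj8 and Kcnj4 widen, and Kcnk2 narrows from 49.0% to 19.5%.

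Tandem-pore (K2P) channels, which carry background potassium current, had calls in both directions. Kcnk2, a channel opened by stretch and lipids, stood at 20.3, 18.2 and 18.5 CPM at passage 3 and at 4.95, 5.97 and 6.91 CPM at passage 20, and fell 3.17-fold (adjusted p = 4.83e-07, edgeR's quasi-likelihood test). Its close relative Kcnk10 fell 5.52-fold to 0.578 ± 0.244 CPM, and entered the test through passage 3 only, where it is high. Kcnk5, a channel opened by alkaline pH, rose 1.86-fold from 4.12, 4.74 and 3.54 CPM to 7.52, 5.77 and 9.45 CPM. Kcnk1 rose 1.4-fold (adjusted p = 0.031), but not with library sizes alone (0.462), by DESeq2 (0.132), or without passage 20 replicate 3, passage 3 replicate 1 or passage 3 replicate 2 (0.125, 0.0995 and 0.0875). Kcnk3, an acid-sensitive channel gene, and Kcnk6 had means of 0.782 to 2.98 CPM and missed the threshold.

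The family named for channels activated by calcium or sodium was set by gene symbol, and takes in Kcnu1 by symbol alone. In its 7 tested genes, 5 fell, 1 rose and 1 did not pass (85.7% called, against 74.3% of all genes tested). Kcnn2 and Kcnu1 entered the test through passage 3, where they are high. Of the other 5 genes 3 fell, 1 rose and 1 did not pass. Among all genes at the filter's level in all 6 libraries, 74.2% were called. Kcnma1, the pore of the large-conductance channel, fell 1.8-fold, from 4.37, 4.8 and 5.66 CPM to 2.87, 2.49 and 2.88 CPM. The small-conductance genes Kcnn1, Kcnn2 and Kcnn3 all fell, 1.65-fold, 6.89-fold and 1.67-fold, Kcnn2 from 2.85, 3.94 and 4.2 CPM to 0.495, 0.796 and 0.329 CPM. Kcnt2, of the sodium-activated current, rose 2.31-fold from 6.49 ± 1.12 to 15.2 ± 2.88 CPM (largest adjusted p of these 5 genes = 0.00141, edgeR's quasi-likelihood test). Kcnu1, a sperm channel gene, fell 1.88-fold (adjusted p = 0.0408) in groups that overlapped, and did not pass by DESeq2 (0.148) or when passage 20 replicate 1 or 3 or passage 3 replicate 1 or 3 was left out (0.0843 to 0.171). Kcnmb4 stood at 3.23 ± 0.37 and 3.22 ± 0.0579 CPM and did not pass. It shares 693 exon bases with Kcnmb4os2 on the opposite strand. That gene had 170 counts at passage 3 and 27 at passage 20, where Kcnmb4 had 169 and 104. Since the strand setting of the counting is not stated, the Kcnmb4 level is uncertain. Kcnmb2, too low for the filter, had 29 counts at passage 3 and 0 at passage 20, at least 6.03-fold lower against a floor of 3 counts over the group. These counting intervals and this floor hold no other error than that of counting.

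The genes of the main cardiac currents, taken as a list of 28, also went both ways. Of 22 tested, 7 rose, 8 fell and 7 did not pass (68.2% called, against 74.3% of all genes tested). The median log2 fold change was -0.18. Those that rose included Cacna1h, Cacna2d1, Hcn2, Kcnj2 and Kcnj8. Those that fell included Cacna1d, Cacna1g, Scn4b, Kcna4, Kcna5, Kcnd2 and Kcnh2. Among these named genes, Scn4b, Kcna4 and Kcnd2 entered the test through passage 3 only, and Kcnj8 through passage 20 only. A further list held 24 pumps, exchangers, gap junction and other channel genes. In it 9 were higher, 7 lower and 8 did not pass (66.7% called, median log2 0.09).

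Markers of other cell types in which these channels are known were read as lists. In these, 66.7% to 100% of the tested genes were called, against 74.3% of all genes tested (37.0% higher and 37.3% lower). Of 12 neuronal markers, 9 were tested, and 3 rose and 5 fell, with summed levels of 144 to 150.1 CPM at passage 3 and 124 to 145 CPM at passage 20. Rbfox3, a gene of mature neurons, had 2 and 4 counts in all. Of 9 glial markers, 3 were tested, and 1 rose and 1 fell, with summed levels of 24.2 to 25.9 CPM at passage 3 and 39.4 to 43.9 CPM at passage 20. Of 9 smooth muscle markers, 9 were tested, and 1 rose and 6 fell, with summed levels of 982 to 1054 CPM at passage 3 and 915 to 945 CPM at passage 20. Of 9 skeletal muscle markers, 3 were tested, and 2 rose and 0 fell, with summed levels of 3.99 to 5.91 CPM at passage 3 and 18.6 to 21.6 CPM at passage 20. Myf5 and Myf6 were at 0 counts. Of 8 endothelial markers, 5 were tested, and 2 rose and 2 fell, with summed levels of 23.5 to 27.1 CPM at passage 3 and 19.6 to 21.7 CPM at passage 20. Emcn was at 0 counts. Of 8 immune markers, 4 were tested, and 2 rose and 1 fell, with summed levels of 11.7 to 13.9 CPM at passage 3 and 11.6 to 13.2 CPM at passage 20. Ptprc, Cd3e and Itgam were at 0 counts. Of 8 fibroblast markers, 7 were tested, and 5 rose and 2 fell, with summed levels of 12159.8 to 12930.0 CPM at passage 3 and 26658 to 31565 CPM at passage 20. The part of such cells in the channel changes was not tested.

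The other 48 members did not pass the filter on low counts. Of these, 6 had no count in any library (Kcna10, Kcnh8, Kcnj1, Kcnk16, Kcnmb3 and Scn10a), and the other 42 had 1 to 58 counts in all 6 libraries together. Their levels were at most 0.661 CPM at passage 3 and 0.809 CPM at passage 20. Without the filter, the 42 with a count were tested too, and Kcnc2, Kcnk7, Kcnmb2 and Kcnv1 were called at an adjusted p under 0.05.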

How the data were processed

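RNA-seq libraries of mouse ciCPCs were compared between passage 3 (n = 3) and passage 20 (n = 3). The authors deposited whole-number read counts per gene and, separately, scaled log2 values made by a transformation that no source here states. HISAT2 2.0.5, SAMtools, HTSeq and DESeq2 and the build GRCm38 are named per the submitters' processing notes, with no annotation release or strand setting.

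Counts of 53801 genes were filtered with filterByExpr (minimum count 10), scaled by TMM and tested by edgeR 4.0.16 robust quasi-likelihood over 15143 genes, with Benjamini-Hochberg adjustment and a threshold of 0.05 (R 4.3.3). Standard errors are the log2 fold change divided by the square root of F, an approximation. RPKM used exon lengths of GENCODE on GRCm38. Totals of 11387738 to 17721788 counts set the precision, and the common biological coefficient of variation was 7.05%. The fits were tested on simulated data, where 57.8% of 1.5-fold, 80.3% of 2-fold and 97.0% of 4-fold changes were recovered. False calls made up 6.1% of the calls there. Of the 14835 genes run, only 64, 66 and 66 were changed by these folds. That is a far smaller share than was called in the data, so these percentages may not carry over to it. Other scalings and filters, DESeq2 1.42.0, limma 3.58.1 and leaving out each library were tried as alternatives.

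Members and gene lists were chosen with earlier results of these data known. Members named were, per family, up to 4 called genes per direction with the largest change and at least 1 CPM, the 2 with the highest RPKM, and the cardiac current genes. Some genes are not reported here by name, and they remain in the counts, medians and sums. Others were named after their values were seen, to account for each family. Shares within families, neighbouring genes and promoter motifs were also described after values were seen.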

Additional observations from a re-analysis of the deposited data

How the results depend on the processing

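Across the scalings, filters, tools, threshold and omitted libraries tried, 49 to 58 channel genes were called, 19 to 24 higher and 29 to 39 lower, and 0 of the 55 calls turned to the opposite direction as a call. With library sizes alone, 3528 of all genes were called higher instead of 5604, and 19 channel genes were higher and 39 lower. That scaling has no composition factor, which shifted the median of all genes from -0.01 to -0.34. Of 840 values over 53 named genes, 790 kept their direction and side of the threshold, 30 lost the call, 8 gained one and 12 changed sign, and the causes were not tested.

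The values that changed sign belonged to genes that did not pass. With library sizes alone they were -0.27 for Cacna1c (which then passed), -0.14 for Hcn4, -0.11 for Kcnip3 and -0.0072 for Kcnj12, and Cacna1c was -0.019 with upper-quartile scaling. Cacna2d2, near 0 at -0.0045, was 0.0060 by DESeq2, 0.092 by limma-voom, 0.018 with a replicate block and 0.039 by limma on the authors' log2 values. Without 1 library it ran from -0.28 to 0.25, with 0.055 without passage 20 replicate 3, 0.25 without passage 3 replicate 2 and 0.049 without passage 3 replicate 3.

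The labels give no pairing of the libraries by replicate number. Deviations from the group means correlated at 0.0143, -0.0273 and 0.0454 between same-numbered libraries, which with 3 libraries per passage cannot exclude a pairing. With the replicate block, 22 channel genes were higher and 33 lower, with Kcnu1 lost and Kcnj5 gained. Other genes that passed with 1 library left out were Kcna6 and Kcnab1 (without passage 20 replicate 3), Kcnab3 (without that library or passage 3 replicate 1) and Scn7a (without passage 20 replicate 1). At these depths, 48 of the 124 genes were under the filter on low counts. Without it 118 were tested, with 21 higher and 37 lower, and 6 had no count.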
